A study of Homo sapiens with 62 samples.

Results

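Collagen genes were followed across 5 human cell lines from which an extra copy of a chromosome arm had been removed. The members were all protein-coding genes named COL, a number, A and a number. The rule found 44 genes among 58735 listed genes, 19951 of them protein-coding, in the tables of A2058, HCT116, AGS and MCF10A. The A2780 tables use another annotation of 48162 genes, in which 43 of the members are protein-coding and COL26A1 is entered as a polymorphic pseudogene; there it was read by its identifier. By structure, 11 members are fibril-forming, 6 are basement membrane collagen IV chains, 6 belong to collagens VI and XXVIII and 10 are FACIT collagens, which sit on the surface of fibrils. The remaining members are 4 transmembrane collagens, 3 short-chain collagens (VIII and X), 2 multiplexins, collagen VII and collagen XXVI.

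Poly(A) RNA was sequenced 24 hours after plating. A2058 (melanoma) was sampled as wild type (WT, 4 libraries), 1q-loss (2 clones, 4 libraries), 7p-loss (3 clones, 6 libraries) and 8q-loss (2 clones, 4 libraries). HCT116 (colorectal cancer) was sampled as WT (2 libraries) and 8q-loss (2 clones, 4 libraries). AGS (gastric cancer) had 1 WT library, 2 TK+ clones and 5 1q-loss clones with 1 library each, and A2780 (ovarian cancer) had WT (2 libraries), TK+ (2 libraries) and 1q-loss (3 clones, 6 libraries). MCF10A, a non-tumorigenic breast epithelial line, had WT (2 libraries) and 1q-loss (4 clones, 8 libraries), and the same set again in cells expressing hRASV12, an activated form of the RAS oncoprotein. Each loss clone grew from a single cell after ReDACT, a set of CRISPR-based methods for removing a gained chromosome arm. The labels give the version CO for all A2058 and HCT116 clones, AGS clone 11 and MCF10A clone 4, the version NS for the other AGS clones and all A2780 clones, and the version TR for MCF10A clones 1, 2 and 3. WT cells carry the gain of the arm in question, and TK+ cells of AGS and A2780 keep the gained 1q and carry a TK integrant as well. The labels do not say whether the TK+ libraries of A2780 came from 1 clone.

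Collagens are secreted or membrane-bound proteins of the extracellular matrix in which 3 chains wind into a triple helix. Fibroblasts make most of the interstitial fibrils of collagens I, III and V, while epithelial cells contribute basement membrane collagen IV, the anchoring fibrils of collagen VII and the hemidesmosome protein collagen XVII. In the endoplasmic reticulum the chains are hydroxylated, glycosylated and folded with the help of chaperones, and outside the cell they are trimmed by proteinases, crosslinked by lysyl oxidases and bound by integrins and discoidin domain receptors.

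Total counts per library were 19595543 to 28622197 in A2058, 21373588 to 30984036 in HCT116, 15042068 to 19414614 in AGS, 19358338 to 23965475 in A2780 and 15500424 to 29312644 in MCF10A. Levels are CPM, counts relative to library size, scaled by the trimmed mean of M-values. For collagen levels and marker sums the scaling is over all libraries of a line, and for single pathway genes over the libraries of the comparison. A change is called at an adjusted p under 0.05 in edgeR's quasi-likelihood test with Benjamini-Hochberg adjustment over all genes tested. No source says that replicates were separate cultures, and libraries of 1 clone are not independent, so p-values measure the spread between these libraries, which may be technical. In bulk RNA, fewer cells of a type and less RNA per cell cannot be told apart. Of the labelled tissues, A2058 WT expressed 6 of 6 melanocyte markers (2486 to 4399 CPM summed), AGS and HCT116 expressed 6 of 6 epithelial markers with 5 and 2 of 6 gastrointestinal markers at a mean of 1 CPM or more, and MCF10A expressed 6 of 6 basal epithelial markers. The label of A2780 was not matched by its markers: none of 5 ovarian epithelial markers reached a mean of 1 CPM in any A2780 group, and in WT the sum was 0 to 0.197 CPM, while 5 of 6 fibroblast markers were above 1 CPM.

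No collagen gene lies on 1q. COL28A1 lies on 7p (chr7:7356203-7535853, GRCh38), and COL14A1 (chr8:120059780-120372036) and COL22A1 (chr8:138588235-138914006) lie on 8q. The members are spread over 17 chromosomes. In the 12 comparisons made, 11 members were tested in every comparison, and 4 (COL6A5, COL6A6, COL10A1 and COL21A1) had too few counts to be tested in any.

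Each line had its own leading collagens. Means are given with their SD over 4 A2058 libraries or 2 of HCT116, A2780 or MCF10A. Per kilobase of gene length, A2058 WT was led by COL4A2, a basement membrane chain, at 66.2 ± 13.7 CPM per kb, the cartilage-type FACIT chain COL9A3 at 54.8 ± 9.36 and the multiplexin COL18A1, source of endostatin, at 43 ± 6.74. HCT116 WT was led by the collagen VI chains COL6A2 at 33.4 ± 6.67 and COL6A1 at 22.9 ± 7.78 CPM per kb, followed by COL18A1 at 12 ± 3.73. In AGS WT COL6A1 stood at 66.5 CPM per kb, COL17A1 at 12.7 and COL4A5 at 12.5, whereas COL6A2 had 0 counts. A2780 WT held the interstitial set: COL3A1 at 339 ± 12.7, COL5A2 at 95.2 ± 2.31 and COL1A2 at 62.4 ± 0.468 CPM per kb. MCF10A WT was led by COL17A1, the collagen of hemidesmosomes, at 90.8 ± 6.67 CPM per kb, with COL4A2 at 18.2 ± 4.52 and COL4A1 at 13.9 ± 3.50, and hRASV12 cells had the same order at 90.2 ± 1.19, 17.8 ± 0.416 and 12.3 ± 0.365. In A2058 WT the libraries of COL4A2 (50.5 to 82.7) and COL9A3 (42.8 to 64.6 CPM per kb) overlapped, as did those of COL9A3 and COL18A1 there and those of COL4A2 and COL4A1 in MCF10A WT, but the order was the same in each of these libraries. COL4A1, outside the leading 3 of A2058 WT by its mean, exceeded COL18A1 in WT replicate 3 (56.5 against 41.3 CPM per kb). Without division by gene length COL9A3 took rank 4 in A2058 WT. In HCT116 and A2780 WT the leading 3 did not overlap, and AGS WT, with 1 library, has no spread. Since gene lengths and annotations differ between the A2780 tables and the rest, levels across lines are descriptions.

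**Figure D1:**
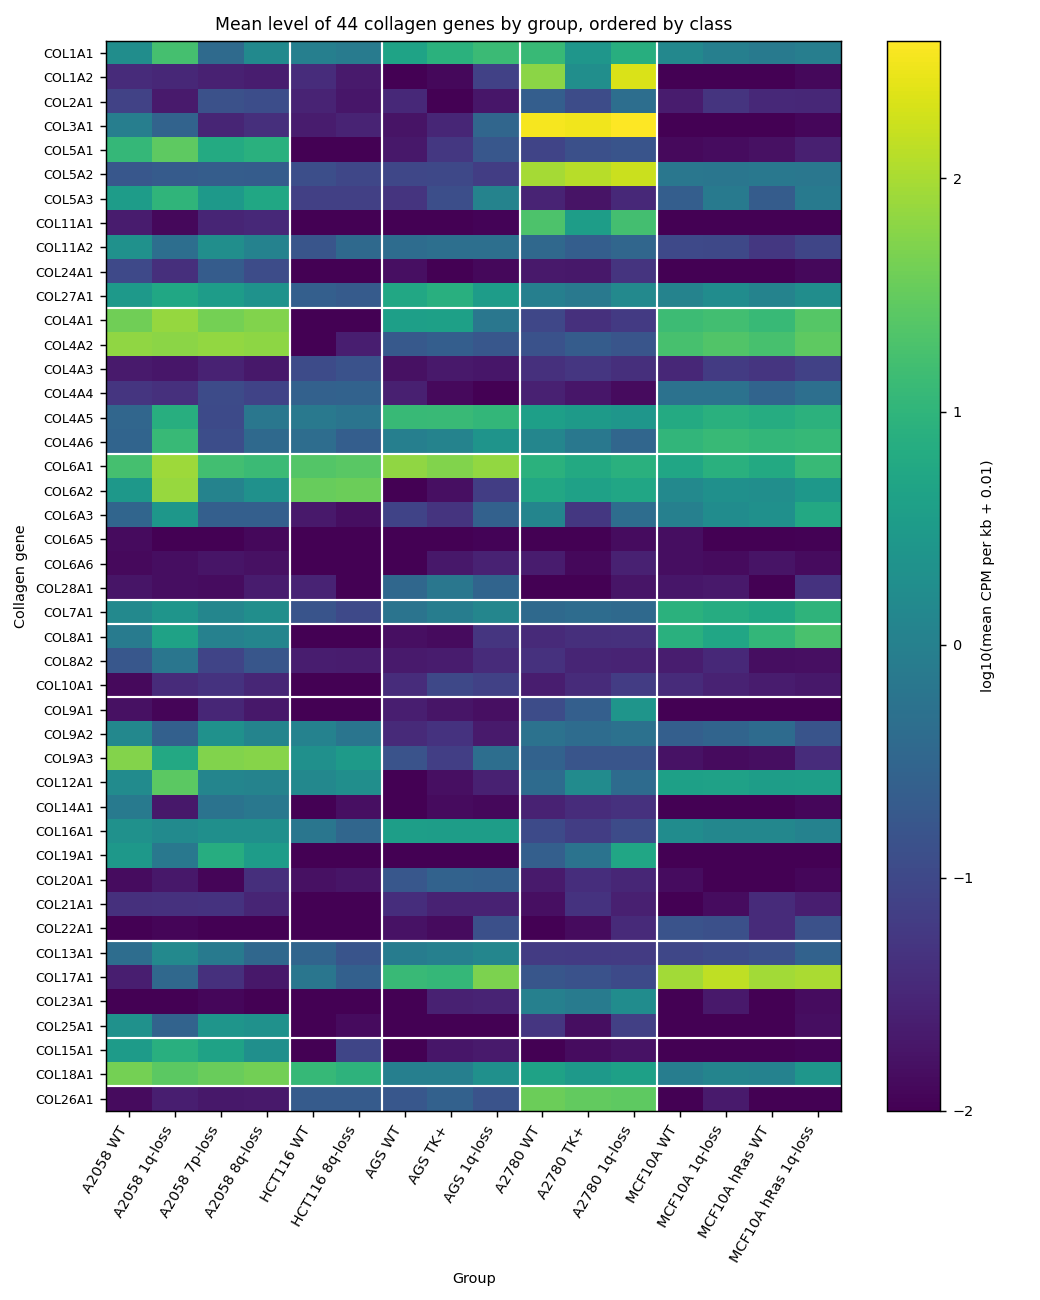
Heat map of collagen RNA levels, with 44 genes in rows (ordered by class) and 16 groups in columns. Colour is log10 of the group mean in CPM per kb plus 0.01. Different rows are bright in different lines, such as COL3A1 in A2780 (339 CPM per kb in WT) and COL17A1 in MCF10A (90.8 CPM per kb in WT).

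All collagen genes together took 2994 ± 573 CPM in A2058 WT, 3423 ± 93.8 in A2780 WT, 1715 ± 266 in MCF10A WT and 482 ± 103 in HCT116 WT (SD, n = 4, 2, 2 and 2), and 854 in the AGS WT library. The sum was spread over few genes: in A2780 WT the leading 3 genes gave 85.2% of it, and in MCF10A WT 69.8%. In A2058 1q-loss the sum was 4785 ± 238 CPM (SD, n = 4), and its 4 libraries, at 4515 to 5076, lay above the 4 WT libraries, at 2305 to 3612. The 7p-loss (2655 to 3312) and 8q-loss libraries (2505 to 3732) overlapped WT. The sums also lay apart in A2780 1q-loss (3547 to 6416 CPM, against 2805 to 3490 in WT and TK+) and in MCF10A hRas 1q-loss (1756 to 4120, against 1669 and 1723 in hRas WT), and overlapped in MCF10A 1q-loss (1841 to 2917, against 1527 and 1903 in WT). Of the hRas 1q-loss clones, clone 4 read 3924 and 4120 CPM, and clones 1, 2 and 3 read 1756 to 2108 CPM, close to hRas WT.

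The first comparison is between A2058 cells with and without loss of 1q. In A2058 1q-loss, 29 members were tested, 17 rose and 9 fell, against 25.3% of all tested genes called higher and 24.3% called lower. In all, 89.7% of the tested members and 49.6% of all tested genes were called. The median log2 fold change was 0.86 over the tested members and -0.001 over all genes. Collagen IV, VI, VII and VIII chains rose wherever they were called (9 of 10 tested), while among the FACIT collagens 4 fell and 1 rose of 6 tested. Melanocyte markers fell in the same cells, all 6 of 6, from a sum of 2486 to 4399 CPM in WT to 49.5 to 254.7 CPM in 1q-loss, and the summed basal epithelial markers were 540 to 907 CPM against 24.8 to 78.4 in WT with KRT5 below 1 CPM and DSC3 at 0. The fibroblast markers summed to 60.8 to 69.5 CPM against 31.5 to 41.9. The part of these cell type shifts in the collagen changes was not tested.

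The basement membrane chains COL4A5 and COL4A6 rose together. COL4A6 read 1.88, 2.55, 3.09 and 3.13 CPM in the 4 WT libraries, 97.9 and 103 CPM in 1q-loss clone 1 and 122 and 145 CPM in clone 2 (log2 fold change of 5.44 with SE 0.18 and adjusted p = 2.35e-08). COL4A5, the chain it pairs with in collagen IV of smooth muscle and some epithelia, read 3.19, 3.63, 3.88 and 4.06 CPM in WT and 72.8, 74.9, 104 and 114 CPM in 1q-loss (log2 fold change of 4.62 with SE 0.18 and adjusted p = 4.63e-08). For both genes, every 1q-loss library exceeded every WT library. COL4A1 also rose, by a smaller amount and with overlapping groups: 393, 506, 833 and 623 CPM in WT and 1236, 1322, 889 and 828 CPM in 1q-loss (log2 fold change of 0.86 with SE 0.22 and adjusted p = 0.00855). The call ended without clone 1 (log2 fold change 0.54, adjusted p = 0.0687) and with WT replicates 3 and 4 as the only controls (0.55, adjusted p = 0.0811). Its partner COL4A2 did not pass the test (log2 fold change -0.08, adjusted p = 0.73), at 974, 1178, 1595 and 1363 CPM in WT and 1440, 1444, 1020 and 937 CPM in 1q-loss.

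Collagen IV genes stand head to head, and the stretches before their start sites are shown because the pairs moved together in some comparisons and apart in others. In RefSeq on GRCh38.p14 the starts of COL4A1 and COL4A2 lie 126 bases apart, and those of COL4A6 and COL4A5 lie 379 bases apart. Capitals mark CCAAT and GGGCGG, searched on both strands, so that ATTGG is CCAAT on the other strand. The whole stretch between COL4A1 and COL4A2 is chr13:110307158-110307283 (plus strand, 80.2% G and C), and the 250 bases before COL4A5 are chrX:108439588-108439837 (plus strand, 51.2% G and C).
between COL4A1 and COL4A2: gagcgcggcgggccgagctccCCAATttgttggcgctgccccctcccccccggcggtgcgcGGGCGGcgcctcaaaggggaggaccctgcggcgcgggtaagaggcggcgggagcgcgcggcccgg
upstream of COL4A5: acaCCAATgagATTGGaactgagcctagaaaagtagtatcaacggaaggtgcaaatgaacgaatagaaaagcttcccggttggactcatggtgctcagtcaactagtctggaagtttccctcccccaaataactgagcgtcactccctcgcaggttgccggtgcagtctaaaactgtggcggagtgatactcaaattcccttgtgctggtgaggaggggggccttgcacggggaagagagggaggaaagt
The first sequence holds 1 CCAAT and 1 GGGCGG, and the second holds 2 CCAAT matches and no GGGCGG. Windows of 300 bases around the start were found for 32 of the 44 members. CCAAT was in 31.2% of them and in 35.7% of 27305 windows of all genes, GGGCGG in 56.2% and 44.6%, TATAAA in 15.6% and 12%, and TGACTCA in 0 and 4.92%, all on either strand, with overlaps between motifs allowed. In the annotation behind the counts, COL4A1 and COL4A2 overlap by 1422 bases on opposite strands, and reads from those bases cannot be told apart where strand was not used.

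Collagen VI, whose chains build the beaded microfibrils around cells, rose in all 3 tested chains. COL6A2 read 14.8, 13.8, 12.6 and 18.1 CPM in WT and 342, 386, 436 and 482 CPM in 1q-loss (log2 fold change of 4.79 with SE 0.15 and adjusted p = 1.54e-08). COL6A1 read 87.2, 88.5, 88.8 and 105 CPM in WT and 364, 377, 498 and 526 CPM in 1q-loss (log2 fold change of 2.25 with SE 0.13 and adjusted p = 4.59e-07). COL6A3 went from 5.96 ± 3.64 CPM (SD, n = 4) to 52 ± 19 CPM (SD, n = 4), a log2 fold change of 3.12 with SE 0.38 and adjusted p = 6.71e-05. None of the 3 chains overlapped between the groups. Per kilobase, COL6A2 stood at 2.75 against 17.3 CPM per kb for COL6A1 in WT, and at 76.4 against 82.6 in 1q-loss, so the 2 chains were at near-equal levels only in the 1q-loss cells.

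Among collagens of fibrils, COL12A1, a FACIT that binds collagen I fibrils, read 17.4, 20.6, 24.7 and 19.5 CPM in WT and 298, 309, 449.8 and 306 CPM in 1q-loss (log2 fold change of 4.05 with SE 0.16 and adjusted p = 5.59e-08). COL1A1, a chain of collagen I, read 15.1, 16.1, 17.3 and 22.2 CPM in WT, 108 and 119.7 CPM in clone 1 and 246 and 211 CPM in clone 2 (log2 fold change of 3.27 with SE 0.27 and adjusted p = 5.06e-06). Both were above every WT library in every 1q-loss library, but COL1A2, the partner chain of COL1A1, stayed at 0.185 to 0.507 CPM in WT and 0.143 to 0.435 CPM in 1q-loss and had too few counts for the test. COL5A1, which controls fibril diameter, went from 126 ± 17.8 CPM (SD, n = 4) to 315 ± 31.4 CPM (SD, n = 4), a log2 fold change of 1.32 with SE 0.11 and adjusted p = 4.48e-06. The hemidesmosome gene COL17A1 rose from a range of 0.0423 to 0.231 CPM in WT to a range of 2.27 to 2.77 CPM in 1q-loss (log2 fold change of 4.51 with SE 0.38 and adjusted p = 5.77e-06), with 1 to 5 counts per WT library. Other members that rose were COL8A1, COL8A2, COL13A1, COL5A3, COL15A1, COL27A1 and COL7A1, with log2 fold changes between 0.77 and 2.42. COL7A1, the gene of anchoring fibrils, was called with an adjusted p of 0.0474 and overlapping groups, and it passed in 8 of 19 alternative analyses. With all 18 A2058 libraries in 1 fit COL5A1 (adjusted p = 0.0601), COL15A1 (0.115) and COL13A1 (0.128) were not called, nor was COL13A1 with WT replicates 3 and 4 as the only controls (0.0694).

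The collagens that fell were chiefly FACIT and minor fibrillar chains. COL14A1, a FACIT related to collagen XII, read 7.30, 7.57, 4.34 and 6.89 CPM in WT, that is 94 to 175 counts, and 0.0954, 0.0967, 0.140 and 0 CPM in 1q-loss, that is 0 to 3 counts (log2 fold change of -6.28 with SE 0.43 and adjusted p = 1.35e-06). COL9A3 read 207, 256, 286 and 313 CPM in WT, 35.3 and 43.7 CPM in clone 1 and 15.6 and 17.6 CPM in clone 2 (log2 fold change of -3.25 with SE 0.31 and adjusted p = 1.31e-05). Its partner chain COL9A2 went from 5.79 ± 1.31 CPM (SD, n = 4) to 1.02 ± 0.433 CPM (SD, n = 4), a log2 fold change of -2.52 with SE 0.31 and adjusted p = 7.15e-05. All 1q-loss libraries were below all WT libraries for these genes. COL25A1, a transmembrane collagen best known from neurons, read 18.5, 19.1, 17.1 and 18.1 CPM in WT and 3.53, 2.95, 1.96 and 1.21 CPM in 1q-loss (log2 fold change of -2.93 with SE 0.26 and adjusted p = 8.27e-06). COL11A2, a chain of the minor cartilage collagen XI, fell from 14.1 ± 4.83 CPM (SD, n = 4) to 3.01 ± 2.06 CPM (SD, n = 4), a log2 fold change of -2.24 with SE 0.47 and adjusted p = 0.0027. COL19A1, COL3A1, COL24A1 and COL18A1 fell as well, by 2.11, 1.73, 1.60 and 0.69 on the log2 scale. Of these genes, COL24A1 is the 1 whose groups overlapped, at 0.369 to 1.23 CPM in WT and 0.145 to 0.525 CPM in 1q-loss. It lost its call in 6 of 18 alternatives (adjusted p 0.0533 to 0.129), among them without clone 2 (0.0961), without WT replicate 2 (0.0589) or 4 (0.0606), and without replicate 2 of clone 1 (0.0533) or of clone 2 (0.0553).

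Of 50 other genes of the collagen pathway, 39 were tested in A2058 1q-loss, 20 rose and 6 fell, where 25.3% of all tested genes were called higher and 24.3% lower. The counts of the smaller lists that follow are to be read against those shares. Among 19 tested modifying enzymes and chaperones, 10 rose and 3 fell, and COLGALT2, a collagen galactosyltransferase encoded on 1q, went from 39.1 to 3.29 CPM (log2 fold change of -3.59 with SE 0.28 and adjusted p = 3.35e-06). Of 7 tested proteinases and crosslinkers, 4 rose and none fell. Collagen receptors gave 5 higher and 1 lower of 8 tested: ITGA11, an integrin subunit for fibrillar collagen, went from 1.30 to 143 CPM (log2 fold change of 6.76 with SE 0.24 and adjusted p = 3.56e-08), and ITGA2 from 37.2 to 311 CPM (log2 fold change of 3.06 with SE 0.12 and adjusted p = 4.27e-08). LOXL2, a lysyl oxidase, went from 89 to 576 CPM (log2 fold change 2.70).

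**Figure D2:**
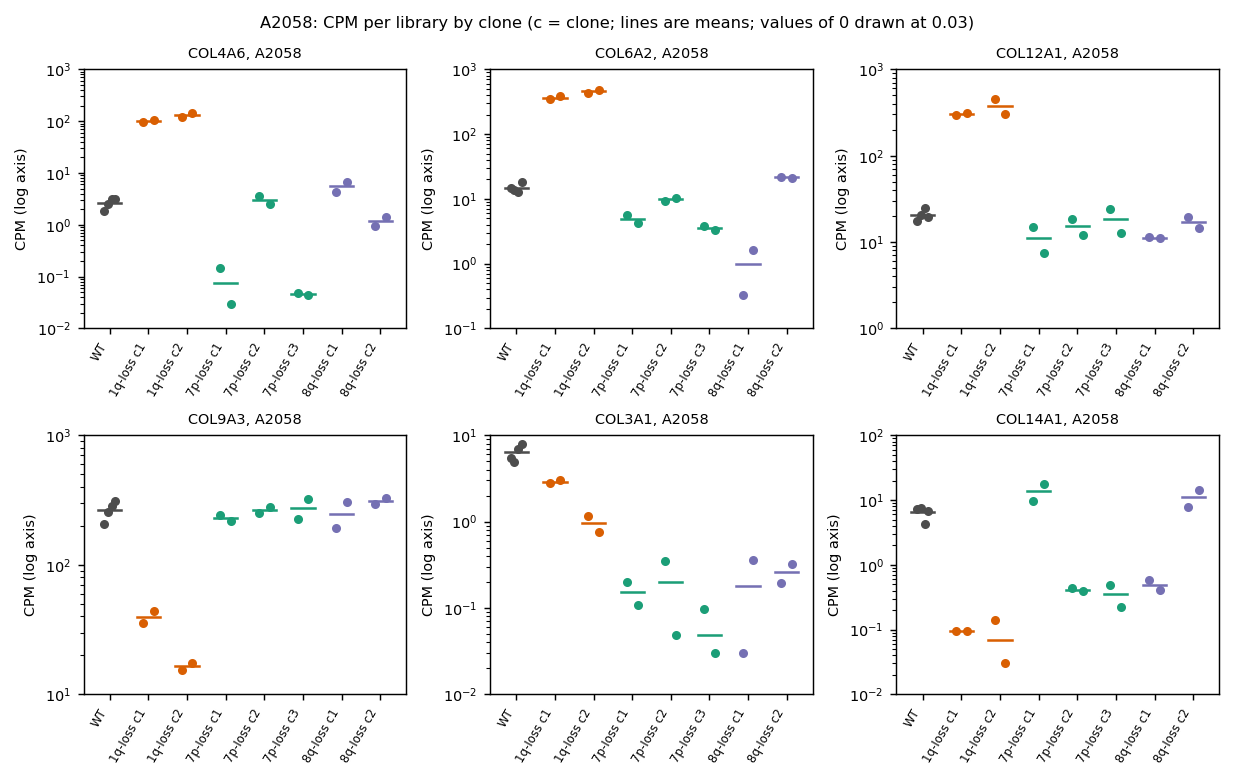
CPM of 6 collagen genes in each A2058 library (log axes), by clone, with a line at each mean and libraries at 0 counts drawn at 0.03. COL4A6, COL6A2 and COL12A1 stand high in both 1q-loss clones, COL9A3 is low only there, COL3A1 is low in all loss clones, and COL14A1 is low in both 1q-loss clones and in some of the 7p-loss and 8q-loss clones.

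In A2058 7p-loss, 29 members were tested; 1 fell and none rose, against 0.804% of all tested genes called lower and 0.105% called higher (0.908% in either direction). In A2058 8q-loss the counts were the same (1 fell, none rose, of 29), against 1.49% and 0.542% (2.03% in either direction). The 1 gene was COL3A1, the chain of collagen III, in both cases. COL3A1 read 5.53, 4.93, 6.88 and 7.95 CPM in WT, 2.81 and 3.00 CPM in 1q-loss clone 1 and 1.17 and 0.755 CPM in 1q-loss clone 2. In the 7p-loss libraries it was 0 to 0.353 CPM (0 to 8 counts), and in the 8q-loss libraries 0 to 0.359 CPM (0 to 8 counts), where 3 counts, the limit that a count of 0 allows, come to 0.107 to 0.152 CPM. Every loss library was below every WT library. The fits gave log2 fold change of -5.50 with SE 0.52 and adjusted p = 0.000669 for 7p-loss and log2 fold change of -4.84 with SE 0.50 and adjusted p = 0.00158 for 8q-loss, beside log2 fold change of -1.73 with SE 0.39 and adjusted p = 0.00371 for 1q-loss. All 3 comparisons use the same 4 WT libraries, so they are not independent. COL3A1 was the 1 member called in 3 or more of the 8 loss comparisons, as 361 of 21155 genes tested in any of them were (1.71%). With the replicate number as a block, which leaves WT replicates 1 and 2 as the only controls, it was called in none of the 3: the log2 fold changes were -1.45, -5.45 and -4.70 (adjusted p = 0.0816, 0.0752 and 0.0545 for 1q-, 7p- and 8q-loss). Calls over all genes went from 7638 to 6387, from 139 to 1 and from 308 to 36 in those fits. With the same controls and no block, the call ended for 1q-loss (adjusted p = 0.0511) and not for 7p-loss or 8q-loss. Melanocyte markers summed to 1196 to 4648 CPM in 7p-loss and 2087 to 3864 CPM in 8q-loss, both overlapping WT, but single markers fell: MLANA in both losses (mean 20.1 CPM in WT, 2.60 in 7p-loss and 2.22 in 8q-loss) and TYR in 8q-loss (121.9 to 4.41 CPM). Fibroblast markers summed to 49.7 to 110.4 CPM in 8q-loss, above the WT libraries at 31.5 to 41.9, and to 22 to 57.8 CPM in 7p-loss, overlapping WT. In 8q-loss 1 of the 6 fibroblast markers was called, LUM, which is also counted among the pathway genes, and the log2 fold changes of the other 5 lay between -0.38 and 0.41. Their part in the COL3A1 difference was not tested. In A2780 1q-loss COL3A1 was 1696 and 1658 CPM in clone 2, below both WT libraries (1832 and 1931 CPM), and 2557, 2351, 2397 and 2309 CPM in clones 5 and 6, above both. The A2780 TK+ controls read 1783 and 1638 CPM, so clone 2 lay within the range of WT and TK+ and clones 5 and 6 above it.

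Of the members on the removed arms, COL14A1 could be tested for 8q. In the 8q-loss clones of A2058 it was low in clone 1, at 0.582 and 0.404 CPM, and not in clone 2, at 7.76 and 14.4 CPM, against 4.34 to 7.57 CPM in WT (log2 fold change of -0.18 with SE 0.84 and adjusted p = 0.952). Without clone 2 the log2 fold change was -3.71 (adjusted p = 0.000812), and without clone 1 it was 0.76 (adjusted p = 0.233). Low clones were not particular to 8q: in 7p-loss COL14A1 was 9.54 and 17.7 CPM in clone 1, 0.442 and 0.389 CPM in clone 2 and 0.483 and 0.222 CPM in clone 3. COL22A1, a FACIT of tissue junctions, had 0 counts in all WT, 7p-loss and 8q-loss libraries of A2058, and in all HCT116 libraries. COL28A1, a relative of collagen VI on 7p, had 0 to 4 counts in A2058 WT and 0 to 2 in 7p-loss, so a change was not detectable at this depth.

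Clones of 1 loss differed from each other in more members than the tests called. COL4A5 had 0 counts in all 4 libraries of 7p-loss clones 1 and 3 and read 3.84 and 3.06 CPM in clone 2 (WT 3.19 to 4.06 CPM). Its neighbour COL4A6 read 0.148 and 0 CPM in clone 1, 0.0483 and 0.0443 CPM in clone 3 and 3.58 and 2.48 CPM in clone 2. In 8q-loss clone 1 COL4A5 was 13.1 and 13.5 and COL4A6 4.28 and 6.69 CPM, above WT, and in clone 2 they were 2.07 and 1.71 and 0.964 and 1.44 CPM, below WT. In each of these clones both genes were low, near WT or high together. Neither gene was called in 7p-loss (adjusted p = 0.599 and 0.636) or 8q-loss (adjusted p = 0.512 and 0.849). COL6A2 was 0.332 and 1.62 CPM in 8q-loss clone 1 and 22.2 and 20.7 CPM in clone 2, on either side of the WT range of 12.6 to 18.1. COL5A1 was 17.9 and 11.1 CPM in 7p-loss clone 1 and 68.7 to 124 CPM in clones 2 and 3, against 104 to 144 in WT. COL1A1 was below every WT library in all 7p-loss libraries, at 7.52, 1.86, 6.18, 4.96, 0.773 and 0.975 CPM, and was not called (log2 fold change of -2.25 with SE 0.56 and adjusted p = 0.116). COL19A1, a FACIT of basement membrane zones, was above every WT library in all 7p-loss libraries, with 35.3 to 103 against 16.5 to 32.0 CPM, and was not called either (log2 fold change of 1.36 with SE 0.31 and adjusted p = 0.0845). The genes described clone by clone, here and in the other lines, were picked after their values were seen. With clone 1 or clone 2 left out, 4 members were called in 7p-loss, while calls over all genes went from 139 to 898 without clone 1 and to 131 without clone 2. In 8q-loss 4 members were called without clone 1 and 6 without clone 2, while calls over all genes went from 308 to 557 and 783.

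Of 40 other pathway genes tested in each, 1 rose in 7p-loss (2.5%, against 0.908% of all tested genes called) and 3 rose in 8q-loss (7.5%, against 2.03%), and none fell. ITGA1, a collagen-binding integrin subunit, went from 148 to 416 CPM in 7p-loss (log2 fold change of 1.49 with SE 0.26 and adjusted p = 0.0248) and from 149.7 to 390.1 CPM in 8q-loss (log2 fold change of 1.38 with SE 0.29 and adjusted p = 0.0415). LUM, the fibril-binding proteoglycan lumican, went from 21.6 to 60.7 CPM in 8q-loss (log2 fold change of 1.49 with SE 0.23 and adjusted p = 0.00883), and SPARC, a collagen-binding matrix protein, from 2784 to 3853 CPM (log2 fold change of 0.47 with SE 0.09 and adjusted p = 0.0311).

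In HCT116 8q-loss, none of 23 tested members was called in either direction, where 0.14% of all tested genes were called, 0.0255% higher and 0.115% lower. An unadjusted p under 0.05 was reached by 2 members and by 854 of 15659 genes (5.45%), and DESeq2 called 0 members and 116 of 23804 genes. Those 2 were COL17A1, at 3.82 and 4.86 CPM in WT and 2.67, 0.552, 1.35 and 2.31 CPM in 8q-loss (log2 fold change of -1.33 with SE 0.59 and adjusted p = 0.899), and COL15A1, a multiplexin of basement membrane zones. COL15A1 had 0 counts in both WT libraries and 1 to 32 counts in the 8q-loss libraries (adjusted p = 0.739), at 0.503, 1.26, 0.0329 and 0.315 CPM. COL4A1 had 0 counts in all 6 libraries, and 3 counts come to 0.0987 to 0.127 CPM. The leading gene COL6A2 overlapped between the groups, at 205.5 and 155 CPM in WT and 264.5, 161, 165 and 181.5 CPM in 8q-loss. So did COL6A1, at 152 and 93 CPM in WT and 220.2, 128, 102 and 106 CPM in 8q-loss. On 8q, COL14A1 had 0 counts in WT and 0 to 4 in 8q-loss. None of 39 tested pathway genes was called, with 4 at an unadjusted p under 0.05.

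In AGS 1q-loss, 21 members were tested; 2 rose and 1 fell, against 3.38% and 4.17% of all tested genes (7.55% in either direction). An unadjusted p under 0.05 was reached by 11 members and by 3860 of 14988 genes (25.8%). COL4A1, a chain of the common basement membrane network, read 57.4 CPM in WT, 57.2 and 64.2 CPM in the TK+ clones and 7.38, 4.22, 7.04, 11.9 and 17.9 CPM in 1q-loss clones 1, 4, 6, 7 and 11 (log2 fold change of -2.62 with SE 0.37 and adjusted p = 0.00766). Every 1q-loss clone was below every control, and the call held in 13 of 13 alternatives (adjusted p 9.56e-10 to 0.0478). COL4A2, which shares its promoter region with COL4A1, was low throughout, at 3.52, 3.61 and 4.91 CPM in the controls and 4.41, 2.28, 2.60, 2.70 and 3.92 CPM in 1q-loss, and its groups overlapped (adjusted p = 0.487). Per kilobase, COL4A1 stood at 3.89 and COL4A2 at 0.182 CPM per kb in WT.

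COL17A1 read 89.8 CPM in AGS WT, 72.7 and 89.3 CPM in TK+ and 203, 168, 518, 548 and 306 CPM in the 5 1q-loss clones (log2 fold change of 2.06 with SE 0.41 and adjusted p = 0.0221). COL18A1 read 8.14 CPM in WT, 7.03 and 8.94 CPM in TK+ and 17.8, 19.1, 15.1, 20.8 and 12.9 CPM in 1q-loss (log2 fold change of 1.10 with SE 0.19 and adjusted p = 0.0156). All 5 clones exceeded all 3 controls for both genes, but with any 1 of the 3 controls left out neither gene passed (adjusted p 0.0881 to 0.0959 for COL17A1 and 0.0635 to 0.0671 for COL18A1). Their log2 fold changes were 1.97 to 2.13 and 1.01 to 1.18 in those fits, while calls over all genes fell from 1131 to between 97 and 246. Clones 6 and 7 were closer in counts (chi-square per degree of freedom of 7.06) than any other pair of 1q-loss clones (19.4 to 86). Whether clones 6 and 7 are independent was not tested. Epithelial markers also differed, summing to 7027 to 9445 CPM in 1q-loss against 4580 to 6144 CPM in TK+ and 5448 CPM in WT, with KRT8 and KRT19 called higher and ESRP1 called lower of 6. The basal epithelial marker KRT14 and the ovarian epithelial marker MUC16 were called higher, and the gastrointestinal marker LGALS4 lower. Fibroblast markers were lower in every 1q-loss clone (1.03 to 5.09 CPM) than in every control (8.98 to 20.3 CPM). Their part in the changes of COL4A1, COL17A1 and COL18A1 was not tested.

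Several AGS collagens varied widely between clones. COL5A3, a minor chain of collagen V, was 1.39, 1.08, 20.5, 13.1 and 2.26 CPM in the 5 clones and 0.263, 1.03 and 0.533 CPM in the controls: all clones were above the controls, with clones 6 and 7 highest, and the gene was not called (log2 fold change of 3.67 with SE 1.17 and adjusted p = 0.0869). COL6A1 was 78.8, 166, 606, 625 and 365 CPM in the clones, again highest in clones 6 and 7, and 356, 209 and 358 CPM in the controls. COL1A1 was highest in clone 1, at 369 CPM, and 47.2 to 115 CPM in the others, with a TK+ clone at 132 CPM. COL27A1, a fibrillar collagen of cartilage, was below the controls in every clone, at 24.3, 14.9, 67.7, 69.6 and 65.1 against 78.9, 111 and 113 CPM, and was not called (log2 fold change of -1.06 with SE 0.45 and adjusted p = 0.177). Of 31 tested pathway genes, 3 fell and none rose (9.68% called, against 7.55% of all tested genes): ITGA2 (403 to 215 CPM, log2 fold change of -0.91 with SE 0.20 and adjusted p = 0.0284), MIA3, a cargo receptor for procollagen encoded on 1q (168 to 101 CPM, log2 fold change of -0.73 with SE 0.09 and adjusted p = 0.0041), and ITGB1 (777 to 553 CPM, log2 fold change of -0.49 with SE 0.12 and adjusted p = 0.0379).

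In A2780 the controls themselves differed. A2780 TK+ against WT gave 3 members higher and 8 lower of 26 tested, against 5.16% and 6.05% of all tested genes. COL1A2 read 372 and 376 CPM in WT and 11.2 and 11.1 CPM in TK+ (log2 fold change of -5.07 with SE 0.09 and adjusted p = 2.03e-11). COL6A3 read 12.2 and 13.7 CPM in WT and 0.661 and 0.321 CPM in TK+ (log2 fold change of -4.69 with SE 0.27 and adjusted p = 1.33e-07). COL11A1, a minor fibrillar chain, read 145 and 157 CPM in WT and 27.3 and 24.3 CPM in TK+ (log2 fold change of -2.55 with SE 0.09 and adjusted p = 2.25e-09). COL1A1 read 88.3 and 78.9 CPM in WT and 16.8 and 18.4 CPM in TK+ (log2 fold change of -2.24 with SE 0.10 and adjusted p = 1.50e-08). The groups did not overlap for any of these genes, so both chains of collagen I were lower in TK+ cells. COL4A6 (-0.91 on the log2 scale), COL18A1 (-0.61), COL6A1 (-0.47) and COL6A2 (-0.43) fell by less. Without WT replicate 1 or 2 neither COL6A1 (adjusted p = 0.0559 and 0.0553) nor COL6A2 (0.272 and 0.15) passed, and DESeq2 gave COL6A2 an adjusted p of 0.177.

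Upward, COL12A1 read 4.70 and 4.63 CPM in WT and 16.8 and 22.2 CPM in TK+ (log2 fold change of 2.06 with SE 0.17 and adjusted p = 4.17e-06). COL19A1 rose from 1.36 and 1.53 to 3.35 and 3.39 CPM (log2 fold change of 1.23 with SE 0.27 and adjusted p = 0.0108) and COL5A2 from 650.4 and 673 to 873 and 896 CPM (log2 fold change of 0.42 with SE 0.09 and adjusted p = 0.0071). Leaving out WT replicate 1 lifted the adjusted p of COL19A1 to 0.062 and that of COL5A2 to 0.268, and without WT replicate 2 that of COL5A2 was 0.161. DESeq2 with all libraries gave COL19A1 an adjusted p of 0.0772. COL3A1, the most abundant member, did not pass in the main fit (log2 fold change -0.14, adjusted p = 0.497). Of 39 tested pathway genes, 1 rose and 9 fell (25.6% called, against 11.2% of all tested genes), led by PLOD2, a lysyl hydroxylase (23.4 to 1.86 CPM, log2 fold change of -3.65 with SE 0.18 and adjusted p = 3.47e-08), and by the lysyl oxidases LOXL1 (3.03 to 0.264 CPM, log2 fold change -3.48) and LOXL4 (2.50 to 0.443 CPM, log2 fold change -2.48). COLGALT2 followed (97.3 to 41.9 CPM, log2 fold change -1.22). Epithelial markers summed to 172 to 181 CPM in WT and 6.30 to 8.94 CPM in TK+, and fibroblast markers to 603 to 620 and 321 to 413 CPM, and their part in these differences was not tested.

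In A2780 1q-loss against WT and TK+ together, which shares its WT libraries with the comparison above, 27 members were tested; 2 rose and none fell, against 5.95% and 5.88% of all tested genes. An unadjusted p under 0.05 was reached by 7 members and by 4065 of 15044 genes (27%). COL27A1 read 7.32 and 7.20 CPM in WT, 4.85 and 6.33 CPM in TK+ and 10.2, 10.2, 9.92, 10.4, 13.5 and 14 CPM in 1q-loss (log2 fold change of 0.82 with SE 0.15 and adjusted p = 0.00708). COL5A2 read 650.4 and 673 CPM in WT, 873 and 896 CPM in TK+ and 1346, 1471, 1078, 1183, 963 and 913 CPM in 1q-loss (log2 fold change of 0.58 with SE 0.15 and adjusted p = 0.0324). For both genes all 6 loss libraries exceeded all 4 controls. With WT as the only controls COL27A1 had an adjusted p of 0.054, and COL5A2 lost its call in 7 of 21 alternatives, among them without clone 2 (adjusted p = 0.0699) and without clone 5 (adjusted p = 0.0649). With TK+ as the only controls COL5A2 had a log2 fold change of 0.39 (adjusted p = 0.282).

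The clones of A2780 1q-loss went opposite ways in the members with the widest range. COL1A2 read 2593 and 2603 CPM in clone 2 and 1319 and 1312 CPM in clone 5, above both WT libraries, and 11.9 and 11.1 CPM in clone 6, the level of TK+. COL11A1 was 335 and 342 CPM in clone 2, 12 and 12.5 CPM in clone 5 and 17.1 and 17.8 CPM in clone 6, so that clone 2 alone was above WT. COL19A1 was 53.7 and 61 CPM in clone 2, 37 and 39 CPM in clone 5 and 0.980 and 0.826 CPM in clone 6 (log2 fold change of 3.73 with SE 1.12 and adjusted p = 0.0535). Without clone 6 the adjusted p of COL19A1 was 0.000306. COL9A1, the neighbour of COL19A1 on 6q and a FACIT of cartilage, was 32.6 and 34.1 CPM in clone 2, 1.37 and 1.18 CPM in clone 5 and 0.187 and 0.0413 CPM in clone 6. Epithelial markers summed to 7.75 to 85.1 CPM over these clones, highest in clone 2, and their part was not tested. Within a clone the 2 libraries of COL1A2, COL11A1 and COL19A1 lay close together, while the clones differed. For COL11A1 clones 5 and 6 were near each other, and for COL19A1 clones 2 and 5, with the remaining clone far away. Leaving out clone 2 gave 6 called members and leaving out clone 6 gave 4, while calls over all genes went from 1780 to 1573 and 1687. Of 40 tested pathway genes 6 rose and 4 fell (25% called, against 11.8% of all tested genes), with LOXL2 at 74.7 to 128 CPM (log2 fold change of 0.78 with SE 0.21 and adjusted p = 0.0344) and DDR2, a collagen receptor tyrosine kinase encoded on 1q, at 259 to 156 CPM (log2 fold change of -0.73 with SE 0.15 and adjusted p = 0.0106). P4HA2, a prolyl hydroxylase subunit, changed by 0.64 and ITGA1 by -0.63 on the log2 scale, with overlapping groups.

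**Figure D3:**
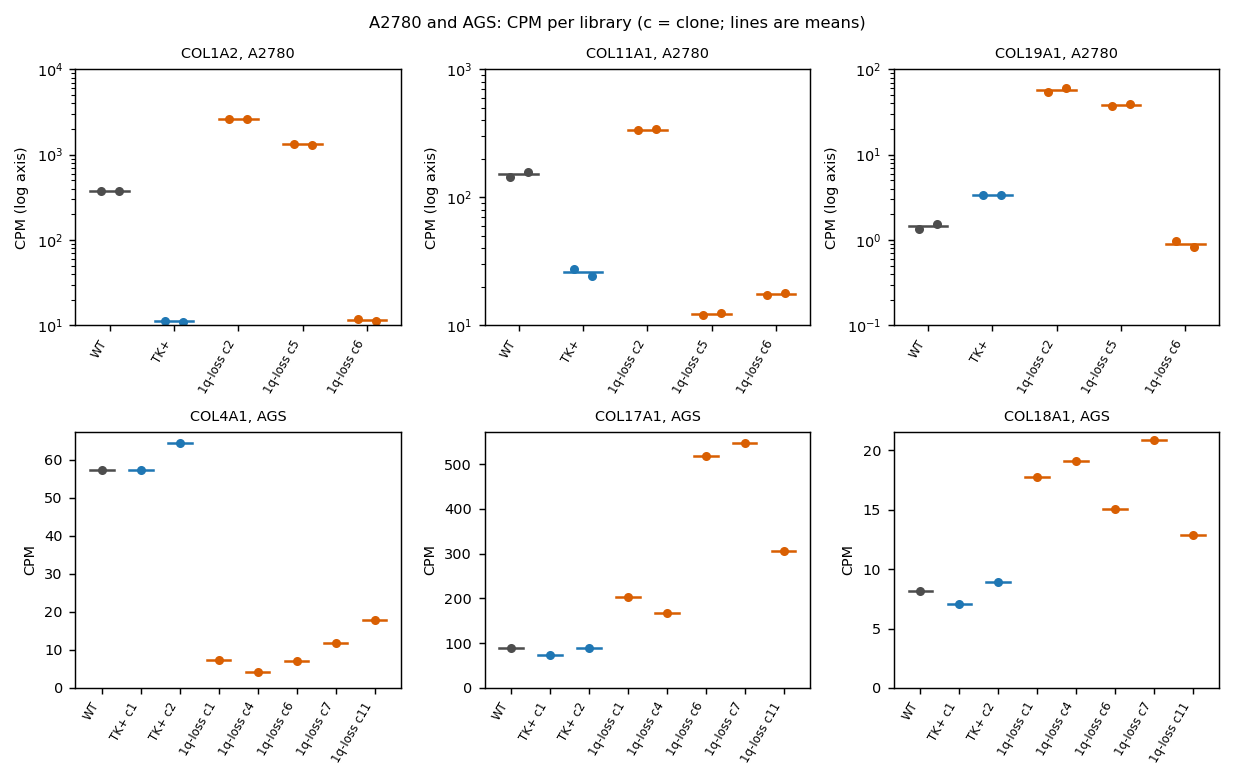
CPM per library, by clone, of COL1A2, COL11A1 and COL19A1 in A2780 (log axes) and of COL4A1, COL17A1 and COL18A1 in AGS (linear axes), with a line at each mean. A2780 1q-loss clones lie on both sides of WT, whereas in AGS all 5 1q-loss clones lie on 1 side of the 3 controls.

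In MCF10A 1q-loss, 23 members were tested; 1 rose and none fell, against 0.3% and 1.74% of all tested genes (2.04% in either direction). COL5A3 read 1.32 and 1.70 CPM in WT, and its 8 1q-loss libraries had the lowest 2.79, median 4.29 and highest 8.20 CPM (log2 fold change of 1.71 with SE 0.40 and adjusted p = 0.0459). All 8 exceeded both WT libraries. Epithelial markers summed to 1140 to 1740 CPM in these 8 libraries and to 1010 and 1110 CPM in WT, with none of 5 called and 2 at an unadjusted p under 0.05, and their part in the COL5A3 difference was not tested. The call passed in 9 of 20 alternatives, with an adjusted p of 0.563 without WT replicate 1, 0.297 without WT replicate 2, 0.073 without clone 1 and 0.0636 without clone 2. The log2 fold change was 1.54, 1.90, 1.72 and 1.80 in those fits, and without WT replicate 1 or 2 calls over all genes fell from 319 to 16 and 64. In cells with hRASV12 the 1q-loss comparison called none of 23 tested members, where 0.0252% of all tested genes were called higher and 0.189% lower. There 5 members and 2262 of 15851 genes (14.3%) had an unadjusted p under 0.05, and DESeq2 called 1 member and 359 genes, against 34 genes in edgeR. COL5A3 read 1.25 and 1.57 CPM in hRas WT and had the lowest 3.48, median 4.96 and highest 7.28 CPM in the 8 hRas 1q-loss libraries, again without overlap (log2 fold change of 1.85 with SE 0.36 and adjusted p = 0.0744). The interaction of 1q-loss with hRASV12 called none of 23 tested members and 0.0% of all genes, and no member had an unadjusted p under 0.05, as was reached by 366 of 16492 genes.

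The 250 bases before COL5A3 (chr19:10010505-10010754, minus strand, GRCh38.p14, 66.0% G and C) are printed because this gene stood above its controls in every 1q-loss clone of A2058, AGS and MCF10A. Capitals mark 1 CCAAT and 1 GGGCGG, counting both strands.
upstream of COL5A3: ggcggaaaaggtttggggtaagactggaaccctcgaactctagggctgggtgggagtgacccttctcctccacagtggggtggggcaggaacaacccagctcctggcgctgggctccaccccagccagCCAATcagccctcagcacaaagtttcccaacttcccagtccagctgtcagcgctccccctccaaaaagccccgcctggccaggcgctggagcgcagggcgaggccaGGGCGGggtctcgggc
In A2780, COL5A3 had too few counts to be tested, with 0.0441 to 0.181 CPM in the controls and 0 to 0.280 CPM in 1q-loss.

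**Figure D4:**
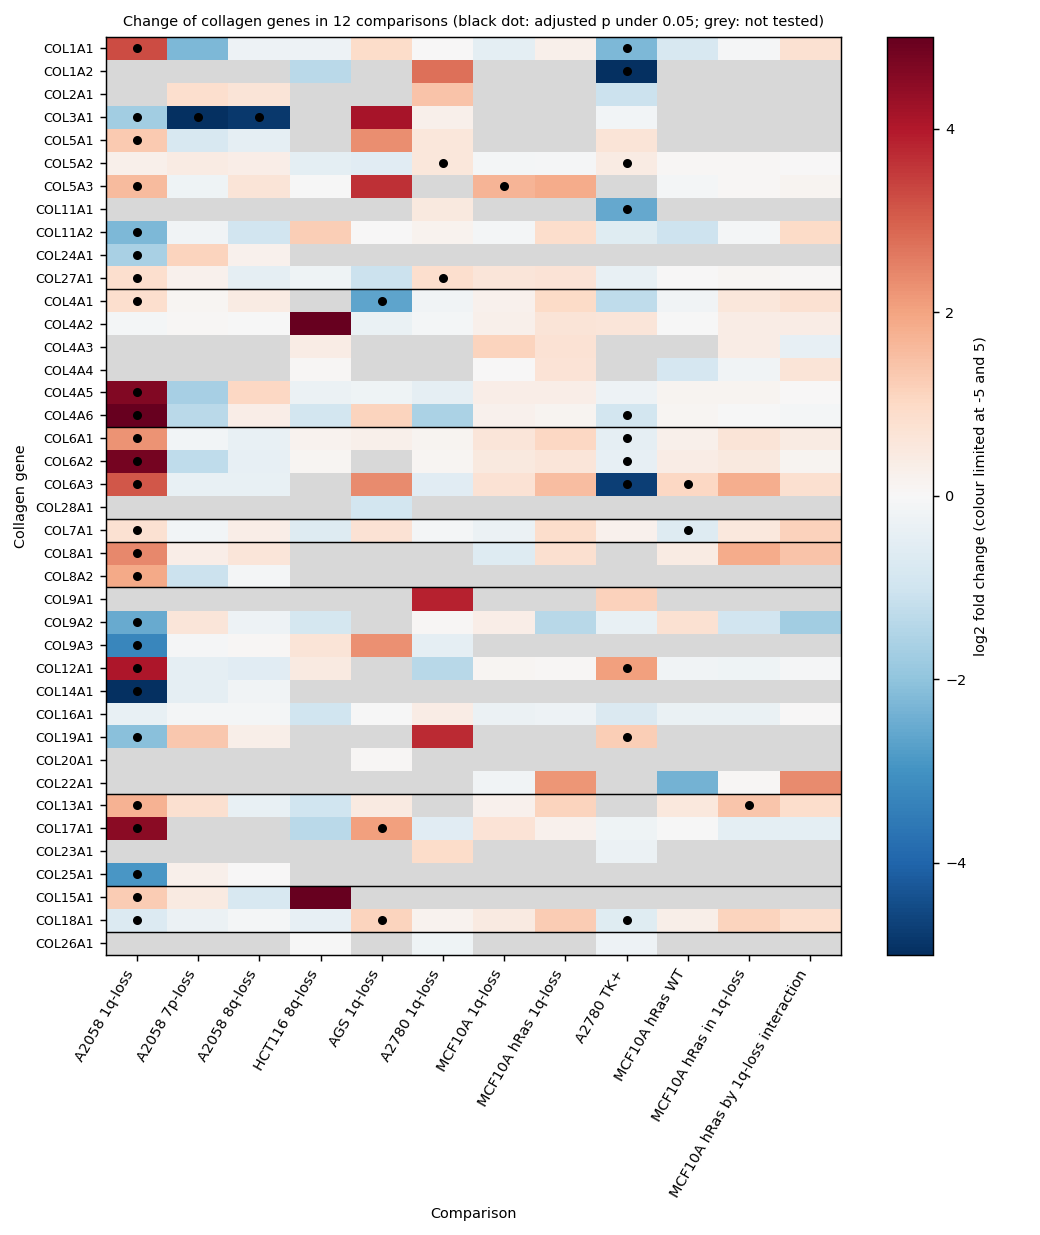
Heat map of the log2 fold change of 40 tested collagen genes in 12 comparisons, with colours limited at -5 and 5, grey where a gene was not tested and a black dot at an adjusted p under 0.05. Dots fill the A2058 1q-loss column (26 genes) and part of the A2780 TK+ column (11 genes), and other columns hold 0 to 3.

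Other MCF10A collagens differed between clones, above all after hRASV12. COL17A1 read 609 and 675 CPM in WT, 643 and 631 CPM in hRas WT and 24.4 and 22.2 CPM in hRas 1q-loss clone 2. In the other hRas 1q-loss clones it was 861 to 1055 CPM, above hRas WT. Clone 2 without hRASV12 had 882 and 1062 CPM. The 2 libraries of hRas clone 2 also stood apart in cell type markers, with basal epithelial markers at 1650 and 1740 CPM summed against 6280 to 8950 in the other hRas 1q-loss clones, epithelial markers at 420 and 428 against 737 to 1650, and fibroblast markers at 288 and 312 against 45.1 to 78.3 in clones 1 and 3. Their part in the low COL17A1 level was not tested. COL6A3 was 229 and 194 CPM in hRas clone 2 and 176 and 176 CPM in hRas clone 4, and 36, 29.9, 40.5 and 40.7 CPM in clones 1 and 3. COL8A1, a short-chain collagen of vessel walls, was 519.6 and 504 CPM in hRas clone 4 and 29.9 to 91.4 CPM in the other hRas clones, against 99 and 106 CPM in hRas WT. COL4A1 was 666 and 716 CPM in hRas clone 4 against 185 and 177 CPM in hRas WT. Fibroblast markers summed to 237 and 216 CPM in clone 4 and to 54.1 and 58.6 CPM in hRas WT, and their part was not tested. Without clone 2 the hRas 1q-loss comparison still called 0 members. Among other pathway genes, 1 rose and 2 fell of 39 tested in MCF10A 1q-loss (7.69% called, against 2.04% of all tested genes), with MRC2, an endocytic collagen receptor, at 14 to 38.3 CPM (log2 fold change of 1.45 with SE 0.33 and adjusted p = 0.0355) and MIA3 at 72.1 to 45.7 CPM (log2 fold change of -0.66 with SE 0.09 and adjusted p = 0.00142). In hRas 1q-loss 0 of 38 were called, against 0.214% of all tested genes, with 11 at an unadjusted p under 0.05, as were 14.3% of all tested genes.

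**Figure D5:**
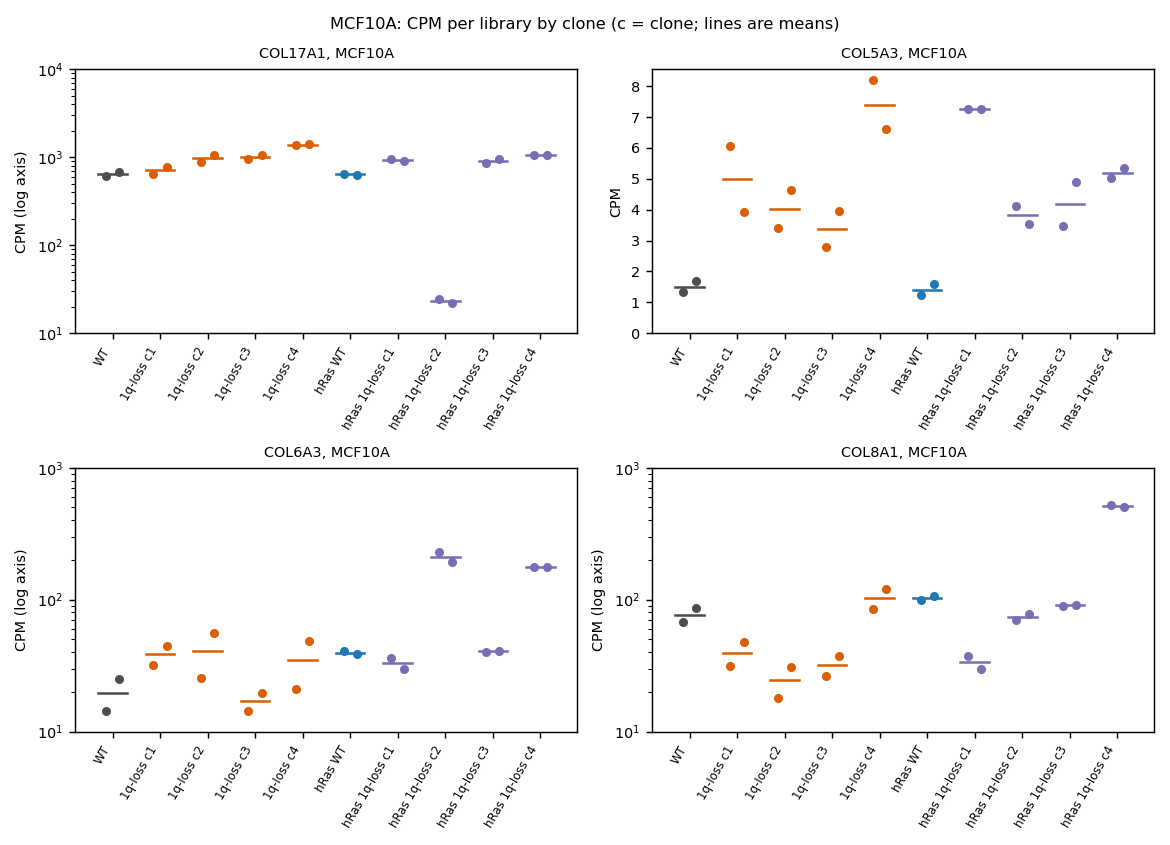
CPM per library, by clone, of COL17A1, COL6A3 and COL8A1 (log axes) and COL5A3 (linear axis) in MCF10A, with a line at each mean. COL5A3 is above WT in all 1q-loss clones, COL17A1 drops to 22.2 and 24.4 CPM in hRas 1q-loss clone 2 alone, and COL8A1 peaks at 504 and 520 CPM in hRas 1q-loss clone 4.

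The effect of hRASV12 itself was read from comparisons that use the same WT and 1q-loss libraries as those above. In WT cells, of 22 tested members 1 rose and 1 fell, against 0.703% and 0.915% of all tested genes. COL6A3 read 14.3 and 24.9 CPM in WT and 40.7 and 38.4 CPM in hRas WT (log2 fold change of 1.03 with SE 0.19 and adjusted p = 0.0157). COL7A1 read 80.6 and 108 CPM in WT and 60.5 and 59.7 CPM in hRas WT (log2 fold change of -0.64 with SE 0.11 and adjusted p = 0.0132). With 2 libraries a group, neither call was kept when WT replicate 1, WT replicate 2 or hRas WT replicate 1 was left out (adjusted p 0.0602 to 0.339), and calls over all genes fell from 237 to 0, 0 and 91 in those fits. COL6A3 also lost its call under DESeq2 with all libraries kept (log2 fold change 1.02, adjusted p = 0.198). With the replicate number as a block, 6 members and 711 genes were called. COL1A1 (log2 fold change -0.79, adjusted p = 0.000664), COL8A1 (0.42, 0.00015), COL4A4 (-0.86, 0.043) and COL22A1 (-2.36, 0.0448) gained a call in that fit. In 1q-loss cells hRASV12 gave 1 member higher and none lower of 23 tested, against 0.795% and 0.405% (1.2% in either direction). The 2 groups share clone numbers, and with clone as a covariate 6 members were called, with calls over all genes going from 172 to 2227. COL18A1 (log2 fold change 1.10, adjusted p = 0.000268), COL6A1 (0.62, 0.00182), COL6A3 (1.49, 0.0101) and COL8A1 (1.34, 0.00678) gained a call in that fit. With the libraries of each clone summed, 0 genes of any kind were called. The member called without the covariate was COL13A1, a transmembrane collagen of focal adhesions, which had the lowest 0.186, median 0.597 and highest 0.879 CPM without and the lowest 0.656, median 1.52 and highest 2.86 CPM with hRASV12 (log2 fold change of 1.39 with SE 0.32 and adjusted p = 0.0444). The groups overlapped, at 4 to 19 and 11 to 76 counts, and the call passed in 8 of 27 alternatives, with adjusted p of 0.268 without clone 2. DCN, the proteoglycan decorin, went from 2.73 to 18.7 CPM with hRASV12 in WT cells (log2 fold change of 2.79 with SE 0.20 and adjusted p = 1.63e-05) and from 4.13 to 97.9 CPM in 1q-loss cells, with overlapping groups (log2 fold change of 4.58 with SE 1.02 and adjusted p = 0.0421). In all, 3 pathway genes rose and 1 fell of 38 in WT cells (10.5% called, against 1.62% of all tested genes), and 5 rose and none fell of 35 in 1q-loss cells (14.3% against 1.2%). Fibroblast markers summed to 216 to 312 CPM in hRas 1q-loss clones 2 and 4 and to 45.1 to 78.3 CPM in clones 1 and 3. In hRas WT, 2 of 5 tested epithelial and 2 of 6 basal epithelial markers were called lower than in WT. The part of these markers in the hRASV12 changes was not tested.

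Over the 8 loss comparisons, 27 of the 40 members tested in any of them were called at least once (67.5%, against 43.1% of 21155 genes tested in any) and 6 more than once (15%, against 8.36%). Of the 27, all but COL5A2 are among the 26 called in A2058 1q-loss, where 49.6% of all tested genes were called, and each of the 6 was called there. Besides COL3A1, these were COL4A1, COL5A3, COL17A1, COL18A1 and COL27A1, called in 2 comparisons each. COL5A3 (A2058 and MCF10A 1q-loss), COL17A1 (A2058 and AGS 1q-loss) and COL27A1 (A2058 and A2780 1q-loss) rose in both. COL4A1 and COL18A1 went opposite ways in A2058 and AGS 1q-loss: COL4A1 by 0.86 and -2.62, and COL18A1 by -0.69 and 1.10, on the log2 scale. The A2058 call of COL4A1 ended without clone 1, as given above. The difference between the lines was not tested. By the annotation COL18A1 overlaps SLC19A1 and COL5A3 has an antisense gene, AC008742.1, and reads from shared bases cannot be told apart where strand was not used.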

How the data were processed

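The deposited tables hold whole-number counts per gene and library, used as the authors deposited them. The submitters' processing notes name HISAT2 2.0.5, featureCounts 1.5.0-p3 and hg38, without giving the role of each, and the A2780 tables carry GRCh37 coordinates and other gene lengths. The strand setting of the counting is not given in the sources used here. Groups follow the labels, and no pair of libraries of a group was near identical in counts.

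Each comparison was fitted on its own groups with edgeR 4.0.16 in R 4.3.3 (filterByExpr with a minimum count of 10 and a minimum total of 15, TMM scaling, quasi-likelihood F-test, Benjamini-Hochberg adjustment over all genes tested, threshold 0.05). The controls were WT, and WT with TK+ for 1q-loss in AGS and A2780. Standard errors were taken from the F statistic, as the size of the change over its root. The fits were tested on simulated data. Replicate numbers were not taken to pair libraries. Alternatives were DESeq2 1.42.0, RLE scaling, no filter, a mean of at least 1 CPM, summed clones, other controls, a replicate block and each library or clone left out. Named genes were those on the removed arm, up to 5 called members a direction with the largest change at a mean of at least 1 CPM, members called in 3 or more loss comparisons, the leading 3 of each control group by CPM per kb, and up to 4 other pathway genes a comparison. The members and lists were chosen with earlier results of these data known.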

Additional observations from a re-analysis of the deposited data

Results flagged for a closer look

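Of 103 pairs of a gene and a group looked at, 5 held a library that stood apart from the rest of its group by Dixon's criterion, where chance gives about 1 in 20. COL12A1 in A2058 1q-loss clone 2 replicate 1 was 450.0 CPM, with the nearest library at 309 CPM. COL24A1 in A2058 7p-loss clone 1 replicate 1 was 3.26 CPM, with the nearest at 1.99 CPM. COL6A1 in A2058 WT replicate 4 was 105 CPM, with the nearest at 88.7 CPM, and COL8A1 in A2058 WT replicate 3 was 11.6 CPM, with the nearest at 6.79 CPM. COL9A2 in MCF10A hRas 1q-loss clone 2 replicate 2 was 0.0793 CPM, with the nearest at 0.528 CPM.

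In 5 cases all libraries or clones of a member moved one way in one line and the opposite way in another, and these differences were not tested. COL18A1 changed by -0.69 on the log2 scale in A2058 1q-loss and by 1.10 in AGS 1q-loss, a difference of 1.79, and by 1.28 in MCF10A hRas 1q-loss, a difference of 1.97 from A2058. COL27A1 changed by -1.06 in AGS 1q-loss and by 0.83 in A2058 1q-loss, a difference of 1.89. It changed by 0.82 in A2780 1q-loss and by 0.68 in MCF10A hRas 1q-loss, which differ from AGS by 1.88 and 1.74. The changes of COL27A1 in AGS and of both genes in MCF10A hRas 1q-loss did not pass the test.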

How the results depend on the processing

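Among 1598 values of single collagen genes under alternatives, 1445 kept their direction and their side of the threshold, 87 lost the call and 61 gained one. In 5 the direction changed without a call in either fit, for COL14A1 in A2058 8q-loss and COL9A1 in A2780 1q-loss. None reversed a called change. The counts of called members below are by setting, beside the main count. In A2058 7p-loss (1), DESeq2 gave 4, no filter 2, leaving out clone 1 or clone 2 gave 4 each, and all 18 libraries in 1 fit gave 2. Calls over all genes there went from 139 to 448, 137, 898, 131 and 207, in the same order. In A2058 8q-loss (1), leaving out clone 1 gave 4 and clone 2 gave 6, while calls over all genes went from 308 to 557 and 783. In AGS 1q-loss (3), DESeq2 gave 8 and no filter 5. In A2780 1q-loss (2), DESeq2 gave 4, summed clones 1, WT controls or TK+ controls alone 1 each, and leaving out clones 2, 5 and 6 gave 6, 1 and 4. In MCF10A 1q-loss (1), summed clones and leaving out clone 2 gave 0, and leaving out clone 4 gave 2. In hRas 1q-loss (0) DESeq2 gave 1, and for hRASV12 in WT cells (2) no filter gave 6. For hRASV12 in 1q-loss cells (1), DESeq2 and leaving out clone 1 gave 3, the clone covariate 6, and no filter, summed clones and leaving out clone 2, 3 or 4 gave 0. Calls over all genes moved with many of these counts. In AGS they went from 1131 to 2116 under DESeq2 and 1285 with no filter. In A2780 1q-loss they went from 1780 to 2558 under DESeq2, 725 with summed clones and 1302 or 667 with WT or TK+ controls alone. In MCF10A 1q-loss they went from 319 to 294 with summed clones, 254 without clone 2 and 452 without clone 4. For hRASV12 in WT cells no filter gave 633 against 237. For hRASV12 in 1q-loss cells they went from 172 to 802 under DESeq2, 504 without clone 1 and 2227 with the clone covariate. There no filter gave 112, summed clones 0, and leaving out clones 2, 3 and 4 gave 9, 24 and 19. Their cause was not tested.

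The replicate numbers share no stated source, and with the replicate block the counts were 25 in A2058 1q-loss, 0 in 7p-loss, 8q-loss, HCT116, MCF10A 1q-loss, hRas 1q-loss, hRASV12 in 1q-loss cells and the interaction, 2 in A2780 1q-loss, 12 in A2780 TK+ and 6 for hRASV12 in WT cells. In the last 2, calls over all genes went from 1669 to 2288 and from 237 to 711. In A2058 they went from 7638 to 6387 (1q-loss), 139 to 1 (7p-loss) and 308 to 36 (8q-loss). In A2780 1q-loss they went from 1780 to 1566, in HCT116 from 22 to 8 and in MCF10A 1q-loss from 319 to 338. For hRas 1q-loss they went from 34 to 2 and for hRASV12 in 1q-loss cells from 172 to 90, and the interaction had 0 in both fits. COL3A1 lost its call under the block in A2058 1q-loss (adjusted p = 0.0816), 7p-loss (0.0752) and 8q-loss (0.0545), at nearly the same fold change in the last 2. In A2058 this fit holds WT replicates 1 and 2 only, so fewer controls and the block changed together. In A2058 7p-loss, libraries of clones 2 and 3 with the same replicate number differed by a chi-square per degree of freedom of 16 and 17.8, less than the replicates of either clone (24.5 and 35.1).

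With each library left out in turn, the counts were 24 to 26 in A2058 1q-loss, 1 to 1 in 7p-loss, 1 to 2 in 8q-loss, 0 to 0 in HCT116, 1 to 4 in AGS, 1 to 3 in A2780 1q-loss, 7 to 13 in A2780 TK+, 0 to 1 in MCF10A 1q-loss, 0 to 0 in hRas 1q-loss, 0 to 2 for hRASV12 in WT cells, 0 to 3 in 1q-loss cells and 0 to 0 for the interaction. In these fits calls over all genes were 6920 to 7338 in A2058 1q-loss, against 7638 with all libraries. They were 71 to 184 in 7p-loss (139 with all), 119 to 287 in 8q-loss (308) and 97 to 1773 in AGS (1131). In A2780 1q-loss they were 983 to 1800 (1780), and for hRASV12 in 1q-loss cells 28 to 497 (172). They also moved in A2780 TK+, HCT116, MCF10A 1q-loss, hRas 1q-loss and hRASV12 in WT cells. Some of those fits leave 1 library in a group. Members with 0 to 5 counts a library, such as COL22A1 and COL28A1 in A2058, cannot be judged at this depth.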
